A study of Mus musculus with 16 samples.

Results

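Osteoclasts take up large amounts of iron, and 9 genes of that supply were followed here across 16 cultured libraries. They are Tfrc (the transferrin receptor), Steap3 and Steap4 (ferrireductases), Slc11a2, Slc11a1 and Slc40a1 (iron transporters), Fth1 and Ftl1 (the ferritin subunits) and Ppargc1b, a coactivator of mitochondrial genes. The genes were taken by symbol, for their roles, with earlier results of these data known. They are 9 of the 21936 genes in the deposited count table, and all 9 are among the 12093 genes with enough counts to be tested. The lowest value behind any of them was 146 counts, for Steap4 in 1 library.

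RNA was sequenced from osteoclast cultures of 4 genotypes with 4 libraries each: FLT3 ITD Ptprc KO, FLT3 ITD, Ptprc KO and WT, all on the C57BL/6J background. FLT3 ITD is an internal tandem duplication in the receptor tyrosine kinase FLT3, carried as a knock-in, and Ptprc KO removes the gene of the phosphatase CD45. Every culture was seeded with CD11b-positive bone marrow cells, held in 50 ng/ml M-CSF for 3 days and then given 20 ng/ml RANKL. The growth protocol also mentions AC220, an inhibitor of FLT3, for some experiments; none of the 16 libraries is labelled with it, and the study's stated number of samples is above the sum of its groups. RNA was taken when mature osteoclasts appeared, on day 3 to 5. The sources used here give no day per culture, no age or sex, and nothing on whether replicates came from separate animals, so p-values measure the spread between these libraries only.

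Total counts per library ran from 24211724 to 35773313. Ptprc stood at 54.1 to 86.7 CPM (counts scaled to library size) in FLT3 ITD Ptprc KO and at 230.2 to 543 CPM in FLT3 ITD. It stood at 30.8 to 45.8 CPM in Ptprc KO and at 412 to 472 CPM in WT, so Ptprc was lower in each library labelled knockout than in any other. Osteoclast markers were present in every library, but 2 libraries stood apart from their groups. FLT3 ITD Ptprc KO replicate 3 had high osteoclast markers for its group, and FLT3 ITD replicate 4 had low ones. FLT3 ITD replicates 1 and 3 were the most alike of all pairs within a genotype, though they differed by more than counting noise (a chi-square of 2.74 per gene, and 12.8 for the pair after them). FLT3 ITD replicate 2 had a trend with gene length in its deviations (rho with gene length of -0.460). In such bulk RNA, fewer cells of a type and less RNA per cell cannot be told apart.

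Iron bound to transferrin enters cells through the transferrin receptor and reaches endosomes, where STEAP ferrireductases turn ferric into ferrous iron. Slc11a2 (DMT1) carries ferrous iron across the endosomal membrane into the cytosol, ferritin stores what is not used, and Slc40a1 (ferroportin) exports it from the cell. Slc11a1 (NRAMP1) does the like for phagosomes of macrophages. The iron regulatory proteins bind hairpins called iron-responsive elements when iron is low. A hairpin in a 5′ UTR then blocks translation, and hairpins in the 3′ UTR of Tfrc protect that mRNA from decay. In mouse osteoclasts, Ppargc1b drives mitochondrial biogenesis, a large user of iron.

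The sequence that several of these genes share is that hairpin. It is shown because its place differs, in the 3′ UTR of Tfrc and Slc11a2 and in the 5′ UTR of the storage and export genes. Annotated UTRs of the 9 genes (GRCm38, GENCODE M21) were searched on the sense strand for CNNNNNCAGTGN, a bulged C and a 6-base loop that are separated by 5 bases. A match was kept when at least 4 of the 5 upper stem positions paired, G with U included. Elements were found for 5 genes: Tfrc, Slc11a2, Slc40a1, Fth1 and Ftl1. Each is printed 5′ to 3′ over 29 bases in DNA letters, with the bulged C and the loop in capitals.

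Tfrc element 1: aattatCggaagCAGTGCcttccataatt
Tfrc element 2: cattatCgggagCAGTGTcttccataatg
Tfrc element 3: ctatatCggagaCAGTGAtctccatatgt
Tfrc element 4: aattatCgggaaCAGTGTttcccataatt
Slc11a2 element 1: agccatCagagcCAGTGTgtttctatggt
Slc40a1 element 1: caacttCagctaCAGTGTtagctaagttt
Fth1 element 1: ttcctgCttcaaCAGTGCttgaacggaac
Ftl1 element 1: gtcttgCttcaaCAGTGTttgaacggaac

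Tfrc held 4 elements with a full upper stem in its 3′ UTR on the plus strand, at chr16:32631219-32631247, chr16:32631598-32631626, chr16:32631663-32631691 and chr16:32631710-32631738. Slc11a2 held 1 in its 3′ UTR with 4 of 5 stem pairs, at chr15:100395153-100395181 on the minus strand. The other 3 genes held 1 full element each in the 5′ UTR: Slc40a1 at chr1:45925465-45925493 (minus strand), Fth1 at chr19:9982732-9982760 (plus strand) and Ftl1 at chr7:45459779-45459807 (minus strand). The letters alone are common, in the 5′ UTRs of 12% and the 3′ UTRs of 35.8% of annotated genes. With the full stem they were found in the 5′ UTRs of 31 of 20899 genes (0.148%) and the 3′ UTRs of 129 of 21028 genes (0.613%). At the 4 of 5 pairs that kept Slc11a2, the 5′ UTRs of 205 genes (0.981%) and the 3′ UTRs of 872 genes (4.15%) held a match. A match describes these letters only, and the libraries measure mRNA, not its translation.

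On the length-scaled scale (deposited TPM), the storage genes stood far above the rest. The median over the 16 libraries was 13391 TPM for Ftl1, the 6th highest of the table, and 3547 TPM for Fth1, the 22nd. Ftl1 was above Fth1 in every library, with a Fth1 to Ftl1 ratio of 0.224 to 0.617. Tfrc followed at a median of 498 TPM, and its highest library (1192 TPM) lay under the lowest of Fth1 (2539 TPM), while its lowest (147 TPM) lay within the range of Slc11a1 (47.5 to 549 TPM). The median levels of the next 5 were 99.6 TPM for Slc11a1, 77.0 TPM for Slc11a2, 67.8 TPM for Steap3, 56.2 TPM for Ppargc1b and 55.5 TPM for Steap4. The library ranges of these 5 overlap. Slc11a2 lay above Ppargc1b within every library, while the order of every other pair of them differed between libraries. Slc40a1 was lowest, at a median of 18.6 TPM and a range of 2.61 to 58.9 TPM, which overlaps that of Steap4 (4.90 to 146 TPM).

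**Figure D1:**
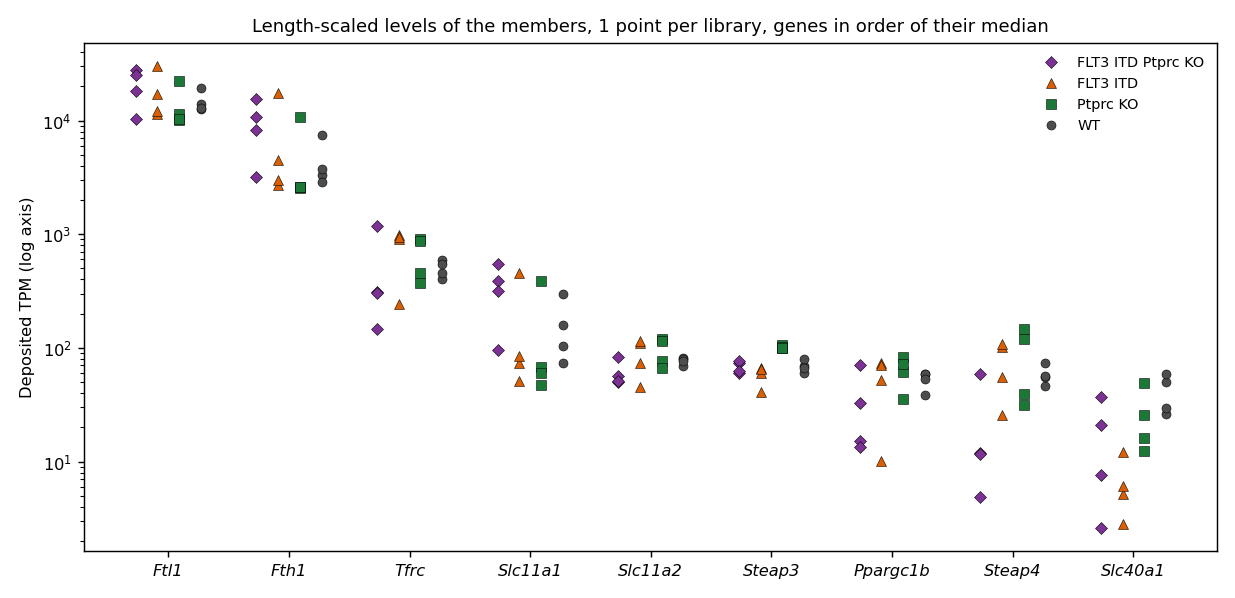
Deposited TPM (log axis) of the 9 genes, 1 point per library, with genes ordered by their median and genotypes by colour and shape. Ftl1 and Fth1 stand above every point of the other 7 genes in all 16 libraries, Tfrc is the next highest by median, and the points of the other genes overlap along the axis.

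The 9 genes differed in how far their libraries were spread. From the lowest to the highest of the 16 libraries, CPM differed 34.0-fold for Steap4, 25.0-fold for Slc40a1, 11.4-fold for Slc11a1 and 9.40-fold for Fth1. The ratio was 7.44-fold for Tfrc, 7.42-fold for Ppargc1b, 3.68-fold for Ftl1 and 2.80-fold for Slc11a2. Steap3 varied least, at 2.29-fold.

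**Figure D2:**
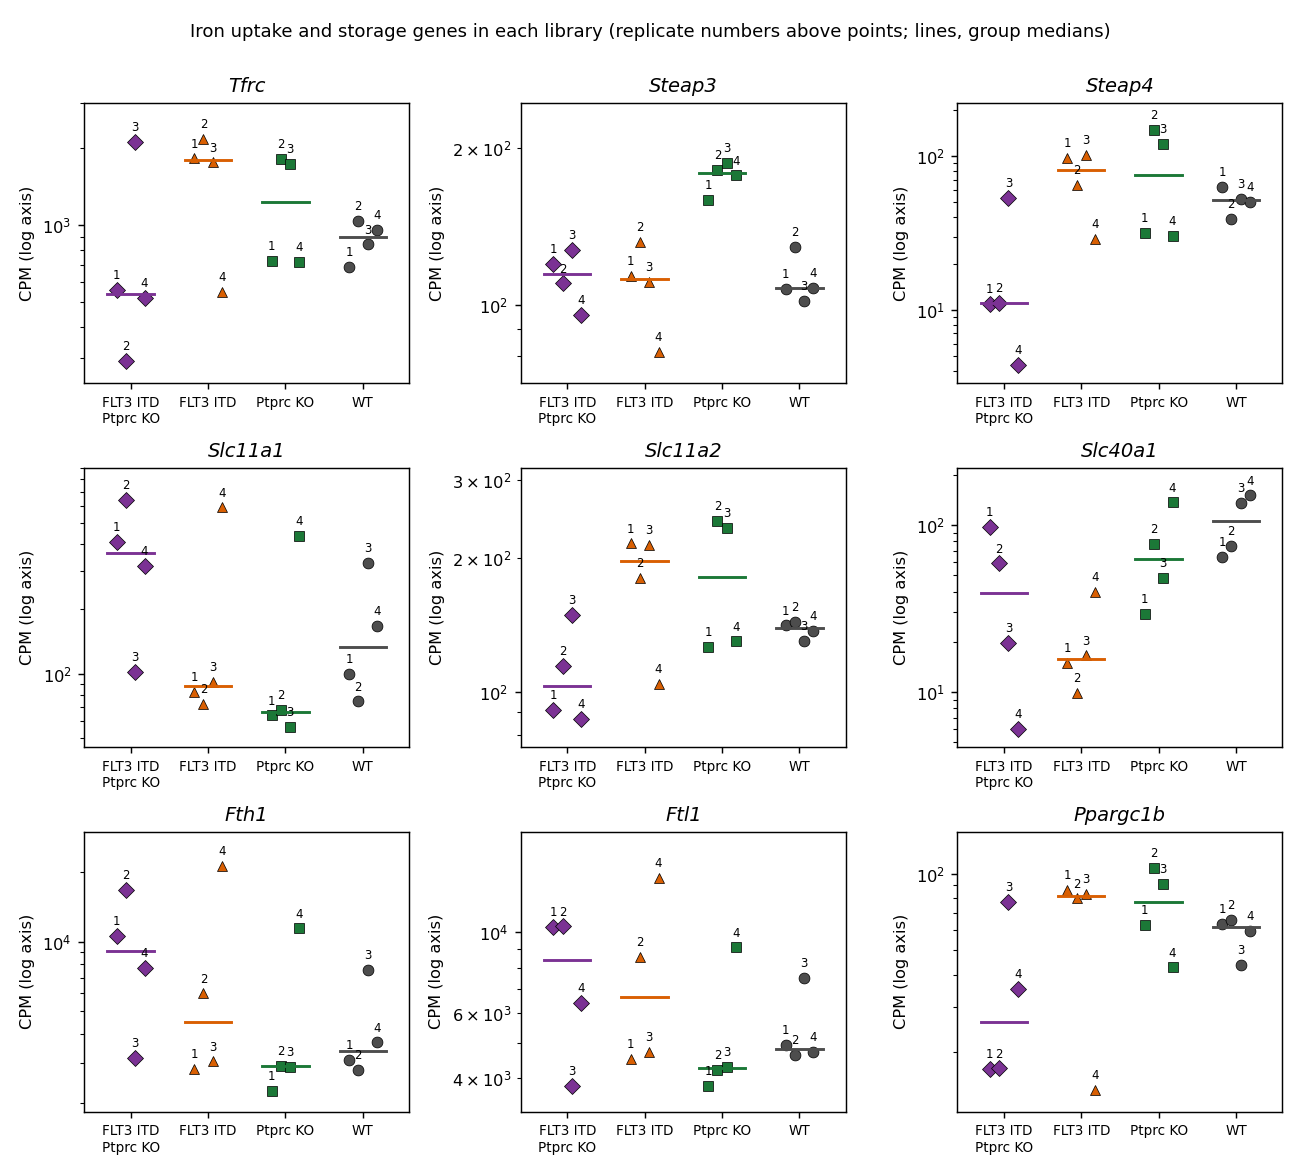
CPM (log axis) of each gene in each library, with genotypes side by side, replicate numbers above the points and a line at each group's median. Steap3 is higher in the 4 Ptprc KO libraries than in all 12 others, Slc40a1 lies lower in FLT3 ITD than in WT, and replicate 3 of FLT3 ITD Ptprc KO and replicate 4 of FLT3 ITD lie away from their groups in most panels.

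Tfrc (ENSMUSG00000022797; GRCm38 chromosome 16, 32608920 to 32632794) stood at 557, 293, 2121 and 518 CPM in FLT3 ITD Ptprc KO replicates 1 to 4. FLT3 ITD libraries had 1826, 2176, 1760.3 and 547 CPM, Ptprc KO libraries 723, 1817, 1738 and 717 CPM, and WT libraries 686, 1039.9, 839.5 and 954 CPM. Libraries above every WT value occur in the other 3 genotypes, as do libraries near or below the lowest WT value, and all 4 groups overlap. The log2 fold change was -0.01 (SE 0.56) for FLT3 ITD Ptprc KO, 0.84 (SE 0.56) for FLT3 ITD and 0.51 (SE 0.56) for Ptprc KO, each against WT. Its mean was 872 ± 841 CPM in FLT3 ITD Ptprc KO, 1577 ± 711 in FLT3 ITD, 1249 ± 611 in Ptprc KO and 879.8 ± 153 in WT (SD, n = 4 each).

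Steap3, the endosomal ferrireductase first known from red cell precursors (ENSMUSG00000026389; chromosome 1, 120190757 to 120272705), was higher in Ptprc KO than in every other library. It stood at 119.8, 110.0, 128 and 95.8 CPM in FLT3 ITD Ptprc KO, at 114, 132, 111 and 81.4 CPM in FLT3 ITD, at 159, 181, 187 and 177 CPM in Ptprc KO, and at 107, 129, 102 and 108 CPM in WT. All 4 Ptprc KO libraries lay above all 12 others, and the other 3 groups overlap. In Ptprc KO its level was 1.58 times that of WT (log2 fold change 0.66, SE 0.14, 95% interval 0.34 to 0.97, unadjusted p = 0.000409). That missed the threshold of 0.05 after Benjamini-Hochberg adjustment over the 12093 genes in the quasi-likelihood test of edgeR (adjusted p = 0.495), while DESeq2 called it (adjusted p = 0.0219). Of 30 alternative settings 2 called it, with adjusted p from 0.000616 to 1.0 and a log2 fold change from 0.57 to 0.73.

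FLT3 ITD Ptprc KO libraries carry the Ptprc knockout too, and their Steap3 level was that of WT within its error (log2 fold change 0.02, 95% interval -0.29 to 0.34). Against Ptprc KO, the log2 fold change of Steap3 was -0.64 (SE 0.14, adjusted p = 0.0952) in FLT3 ITD Ptprc KO and -0.68 (SE 0.14, adjusted p = 0.151) in FLT3 ITD. DESeq2 called both, at adjusted p = 0.00299 and 0.00492, and 5 and 3 of the 30 alternatives did so (adjusted p from 0.000163 to 0.570 and from 3.38e-05 to 0.840). These comparisons share the 4 Ptprc KO libraries with the one against WT, so they are not independent of it. The interaction, which asks whether Ptprc KO acts differently with FLT3 ITD than without, was -0.61 (SE 0.20, adjusted p = 0.255). Steap3 lies 17.8 Mb from Ptprc on the same chromosome, which also holds Slc11a1 (63.7 Mb away) and Slc40a1 (92.1 Mb away).

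Steap4, a second metalloreductase found at the plasma membrane and in endosomes (ENSMUSG00000012428; chromosome 5, 7960457 to 7982213), stood at 10.8, 11.1, 53.5 and 4.38 CPM in FLT3 ITD Ptprc KO. FLT3 ITD libraries had 98.1, 64.9, 102 and 29.0 CPM, Ptprc KO libraries 31.8, 149, 120.0 and 30.3 CPM, and WT libraries 62.9, 39.2, 52.7 and 50.5 CPM. FLT3 ITD Ptprc KO replicates 1, 2 and 4 lay under all other 13 libraries, and replicate 3 lay within the WT range. The log2 fold change of the 4 FLT3 ITD Ptprc KO libraries was -1.88 (SE 0.71, adjusted p = 0.140) against FLT3 ITD, -2.05 (SE 0.71, adjusted p = 0.231) against Ptprc KO and -1.36 (SE 0.70, adjusted p = 0.601) against WT. Without replicate 3 it was -3.07 (adjusted p = 0.0263) against FLT3 ITD and -3.23 (adjusted p = 0.0201) against Ptprc KO, so that 1 library decides both calls. Over the 30 alternatives the adjusted p ran from 0.000206 to 0.581 and from 0.000212 to 0.902.

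Slc11a2, the endosomal ferrous iron transporter (ENSMUSG00000023030; chromosome 15, 100387898 to 100425072), stood at 91.2, 115, 149 and 86.9 CPM in FLT3 ITD Ptprc KO. It stood at 216, 181, 215 and 104 CPM in FLT3 ITD, at 126, 243, 234 and 129.9 CPM in Ptprc KO, and at 141, 144, 130.1 and 137 CPM in WT. WT libraries were tight, and 3 of 4 FLT3 ITD and 2 of 4 Ptprc KO libraries lay above them. The log2 fold change of FLT3 ITD Ptprc KO was -0.70 (SE 0.27, adjusted p = 0.142) against FLT3 ITD and -0.73 (SE 0.27, adjusted p = 0.246) against Ptprc KO. Without FLT3 ITD replicate 4 the first was -0.88 (adjusted p = 0.0367), and over the 30 alternatives its adjusted p ran from 0.000120 to 0.854. The gene overlaps Gm5475 on the other strand, and the sources used here do not say whether counting used the strand, so its counts are uncertain to that extent.

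Slc11a1, the phagosomal transporter of macrophages (ENSMUSG00000026177; chromosome 1, 74375195 to 74386062), stood at 408, 642, 101 and 316 CPM in FLT3 ITD Ptprc KO and at 82.6, 72.3, 91.9 and 591 CPM in FLT3 ITD. Ptprc KO libraries had 64.0, 68.2, 56.5 and 437 CPM, and WT libraries 100, 74.3, 328 and 166 CPM. The high and low libraries are largely the reverse of those of Steap4 and Slc11a2, and every genotype holds at least 1 of each. In none of the 6 pairs did the log2 fold change exceed 2 SE: it was 1.13 (SE 0.86) for FLT3 ITD Ptprc KO, 0.33 (SE 0.85) for FLT3 ITD and -0.09 (SE 0.85) for Ptprc KO, each against WT.

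Slc40a1, the iron exporter (ENSMUSG00000025993; chromosome 1, 45908068 to 45926523), was the member with the largest fold change in the 6 pairs. It stood at 97.4, 59.0, 19.6 and 6.03 CPM in FLT3 ITD Ptprc KO, at 14.9, 9.83, 16.6 and 39.6 CPM in FLT3 ITD, at 29.5, 77.1, 48.1 and 137 CPM in Ptprc KO, and at 64.3, 75.1, 136 and 151 CPM in WT. All 4 FLT3 ITD libraries lay under all 4 WT libraries, while FLT3 ITD Ptprc KO spanned from below the first to within the range of the second. FLT3 ITD averaged 20.2 ± 13.2 CPM and WT 107 ± 43.2 CPM (SD, n = 4 each), which puts the log2 fold change at -2.40 (SE 0.73, 95% interval -3.98 to -0.81, unadjusted p = 0.00509, adjusted p = 0.590). DESeq2 gave -2.39 at an adjusted p of 0.0573, and over the 30 alternatives the value ran from -2.95 to -1.95 with adjusted p from 0.00279 to 0.999. With FLT3 ITD replicates 1 and 3 summed it was -2.29, and without replicate 4 it was -2.95. Against Ptprc KO, the value in FLT3 ITD was -1.85 (SE 0.71, adjusted p = 0.883).

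Fth1, the ferroxidase subunit of ferritin (ENSMUSG00000024661; chromosome 19, 9980598 to 9985098), stood at 10558, 16685, 3135 and 7703 CPM in FLT3 ITD Ptprc KO. FLT3 ITD libraries had 2816, 5977, 3040.1 and 21299.7 CPM, Ptprc KO libraries 2266, 2905, 2878 and 11408 CPM, and WT libraries 3084, 2796, 7549 and 3669.8 CPM. The single highest library was FLT3 ITD replicate 4, and 3 of 4 FLT3 ITD Ptprc KO libraries lay above every WT library. The groups still overlap. The log2 fold change was 1.16 (SE 0.72) for FLT3 ITD Ptprc KO and 0.95 (SE 0.72) for FLT3 ITD, each against WT, and without FLT3 ITD replicate 4 the second was -0.11.

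Ftl1, the light chain that aids mineral core formation (ENSMUSG00000050708; chromosome 7, 45457944 to 45459884), went with it. It stood at 10326, 10346, 3818 and 6418 CPM in FLT3 ITD Ptprc KO, at 4507, 8561, 4725 and 14013 CPM in FLT3 ITD, at 3806, 4223, 4281 and 9078 CPM in Ptprc KO, and at 4919, 4624, 7497 and 4712 CPM in WT. The same libraries were high as for Fth1. The log2 fold change against WT was 0.51 (SE 0.42) for FLT3 ITD Ptprc KO, 0.55 (SE 0.42) for FLT3 ITD and -0.02 (SE 0.41) for Ptprc KO. Together both subunits took 0.672% to 3.19% of all counts of a library. The annotation holds 4 pseudogenes named after ferritin genes, and copies under other names were not counted. Ftl1 also overlaps 1 annotated gene on each strand, so the counts of Fth1 and Ftl1 are uncertain where reads match a copy.

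Ppargc1b (ENSMUSG00000033871; chromosome 18, 61298136 to 61400431) stood at 17.2, 17.3, 77.6 and 35.2 CPM in FLT3 ITD Ptprc KO. It stood at 86.3, 80.0, 83.5 and 14.2 CPM in FLT3 ITD, at 62.9, 105, 91.4 and 42.9 CPM in Ptprc KO, and at 63.6, 65.7, 44.0 and 59.9 CPM in WT. FLT3 ITD Ptprc KO replicate 3 lay above every WT library, and FLT3 ITD replicate 4 below all of FLT3 ITD Ptprc KO. The log2 fold change was -0.66 (SE 0.53) for FLT3 ITD Ptprc KO, 0.18 (SE 0.53) for FLT3 ITD and 0.38 (SE 0.53) for Ptprc KO, each against WT. The microRNA genes Mir378a and Gm25301 lie within it.

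By edgeR with adjustment over all 12093 genes, 0 of the 9 genes passed in any of the 6 pairs of genotypes, in the interaction or in a test of any difference over the 4 genotypes. Few genes of any kind passed. By DESeq2, 1 of 9, Steap3, passed in Ptprc KO against WT (0.091% of all genes), in FLT3 ITD Ptprc KO against Ptprc KO (2.75%), in FLT3 ITD against Ptprc KO (0.397%) and over the 4 genotypes (3.77%), and 0 in the other 4 tests. Voom with quality weights, which weighs down libraries away from their group, called 6 of 9 in FLT3 ITD Ptprc KO (32.2% of all genes), 4 of 9 in FLT3 ITD (15.7%) and 2 of 9 in Ptprc KO (3.99%), each against WT. It called 7 of 9 in FLT3 ITD Ptprc KO against FLT3 ITD (57.9%) and 8 of 9 against Ptprc KO (57.6%), 2 of 9 in FLT3 ITD against Ptprc KO (3.09%), 8 of 9 in the interaction (60.2%) and 9 of 9 over the 4 genotypes (63.3%).

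In edgeR's test of FLT3 ITD Ptprc KO against WT the share called was 0.108% of all genes, and 0 of 9 members were below an unadjusted p of 0.05 (7.89% of all genes). In FLT3 ITD Ptprc KO against FLT3 ITD 0.00827% of all genes were called, and 2 of 9 members, Steap4 and Slc11a2, were below the unadjusted line (25.7% of all genes), a share near the background. Against Ptprc KO, FLT3 ITD Ptprc KO had 0.091% of all genes called, and 3 of 9 members, Steap3, Steap4 and Slc11a2, were below the unadjusted line (17.8% of all genes).

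In FLT3 ITD against WT, 0.0413% of all genes were called, and 1 of 9 members, Slc40a1, was below the unadjusted line (8.45% of all genes). Its library ranges did not overlap, which held in the lower direction for 3.2% of all genes. For Ptprc KO against WT the share called was 0.0331%, and 1 of 9 members, Steap3, was below the unadjusted line (0.843% of all genes), with ranges that did not overlap in the higher direction (0.786% of all genes). FLT3 ITD against Ptprc KO had 0.0744% of all genes called, and 2 of 9 members, Slc40a1 and Steap3, below the unadjusted line (3.91% of all genes). The ranges of Steap3 did not overlap in the lower direction there (1.42% of all genes), nor in FLT3 ITD Ptprc KO against Ptprc KO (2.84% of all genes).

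The interaction had 0.00827% of all genes called and 3 of 9 members, Steap3, Steap4 and Slc11a2, below the unadjusted line (17.5% of all genes). The test of any difference called 0.223% of all genes and had 2 of 9 members, Slc40a1 and Steap3, below that line (12.5% of all genes). The median log2 fold change of the 9 members was -0.01 in FLT3 ITD Ptprc KO, 0.37 in FLT3 ITD and 0.38 in Ptprc KO, each against WT, where the median of all genes tested was 0.05, 0.04 and 0.02. These comparisons share the WT libraries. In FLT3 ITD Ptprc KO it was -0.04 against FLT3 ITD and -0.64 against Ptprc KO, with 0.03 and 0.04 over all genes.

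**Figure D3:**
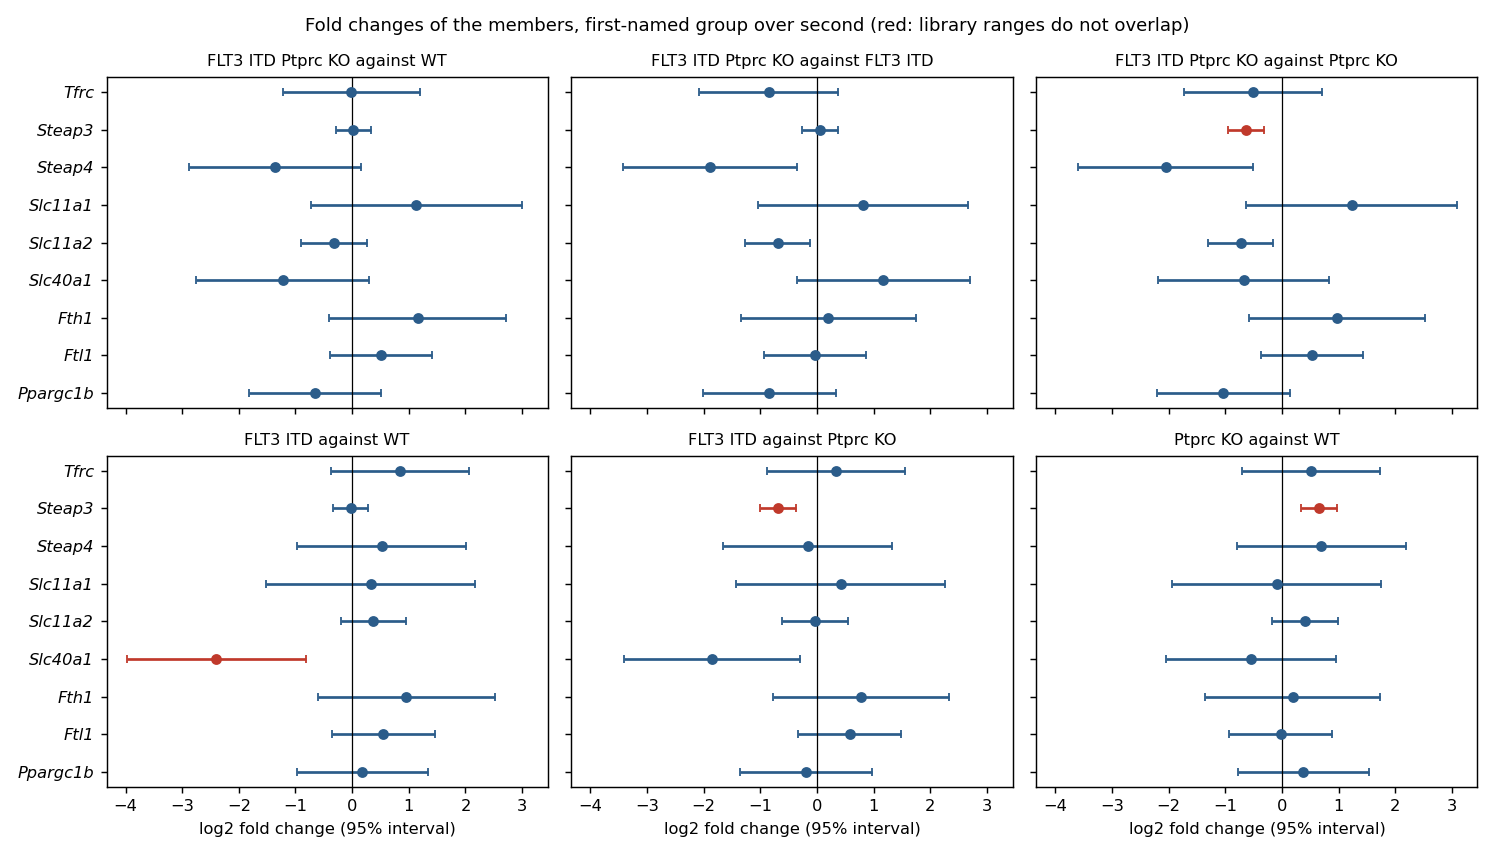
Log2 fold changes of the 9 genes in the 6 pairs of genotypes (first-named genotype over the second), with 95% intervals from the edgeR fit. Red marks genes whose library ranges do not overlap, which are Steap3 in the 3 pairs that include Ptprc KO and Slc40a1 in FLT3 ITD against WT. Most other intervals include 0.

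Leaving out FLT3 ITD Ptprc KO replicate 3 alone, edgeR called 2 of 9 members against FLT3 ITD, Steap4 and Tfrc, where it called 10.8% of all genes, and 2 of 9 against Ptprc KO, Steap3 and Steap4 (6.45%). Leaving out FLT3 ITD replicate 4 alone, it called 1 of 9 in FLT3 ITD Ptprc KO against FLT3 ITD, Slc11a2 (14.7%), 1 of 9 against Ptprc KO, Steap3 (0.656%), and 1 of 9 over the 4 genotypes (0.861%). With both left out, edgeR called 5 of 9 members in FLT3 ITD Ptprc KO against FLT3 ITD, where it called 33.4% of all genes. Tfrc was then at -2.08, Steap4 at -3.33, Slc11a2 at -1.06, Ppargc1b at -1.84 and Slc11a1 at 2.47 on the log2 scale (adjusted p = 0.00352, 0.0034, 0.00812, 0.00352 and 0.0304). Against Ptprc KO it called 5 of 9, Steap3, Steap4, Slc11a2, Tfrc and Ppargc1b, all lower (18.1% of all genes), and against WT 2 of 9, Steap4 and Ppargc1b, both lower (6.68% of all genes). In the interaction it called 5 of 9 (20.2% of all genes) and over the 4 genotypes 5 of 9 (14.6%). These 2 libraries were picked with their values known, and the mean osteoclast marker level, described next, differs most from their groups in them.

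Much of the spread of these genes followed the osteoclast marker level, the mean log2 CPM of 14 markers such as Ctsk, Acp5 and Calcr. From low to high the level was 7.67, 7.75 and 7.83 in FLT3 ITD Ptprc KO replicates 4, 1 and 2, and 8.46 in FLT3 ITD replicate 4. It was 9.15 and 9.37 in Ptprc KO replicates 4 and 1, 9.40 to 9.73 in the WT libraries and 9.74 in FLT3 ITD Ptprc KO replicate 3. The highest were 10.09 to 10.14 in the other 3 FLT3 ITD libraries and 10.37 and 10.48 in Ptprc KO replicates 3 and 2. The level thus varies with genotype and within it, and its part in the fold changes cannot be told apart from that of genotype.

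Across the 16 libraries, 4 genes ran closely with this level. The share of all genes that run as closely with it, in either direction, was not computed. Whether such a relation is particular to iron genes was therefore not tested. Steap4 had a Pearson r of 0.952 and a Spearman rho of 0.956 (permutation p = 1e-05 for both, the smallest that 100000 permutations can give). Slc11a2 stood at r = 0.914 and rho = 0.988 (permutation p = 1e-05 for both), Ppargc1b at r = 0.903 and rho = 0.956 (permutation p = 4e-05 and 1e-05) and Tfrc at r = 0.877 and rho = 0.894 (permutation p = 1e-05 for both). With each genotype's mean removed and permutation within genotypes, r was 0.908 for Steap4, 0.909 for Slc11a2, 0.906 for Ppargc1b and 0.949 for Tfrc (permutation p = 0.0035, 0.00043, 0.00253 and 0.00434). The 2 libraries farthest from the median level were FLT3 ITD Ptprc KO replicates 4 and 1. Without them r was 0.934, 0.864, 0.948 and 0.913 in the same order of genes.

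The storage and phagosome genes ran the other way. Slc11a1 had r = -0.832 and rho = -0.762 (permutation p = 0.00013 and 0.00098), Fth1 r = -0.756 and rho = -0.668 (permutation p = 0.00123 and 0.00593) and Ftl1 r = -0.670 and rho = -0.629 (permutation p = 0.00459 and 0.0106). Without the 2 farthest libraries these r were -0.855, -0.794 and -0.707, and with genotype means removed -0.806, -0.776 and -0.770. Steap3 had r = 0.498 and rho = 0.541 (permutation p = 0.0496 and 0.0336), and 0.475 without the 2 farthest. Slc40a1 had no detectable relation (r = -0.01, rho = -0.141, permutation p = 0.973 and 0.600), and -0.272 without the 2 farthest. All 9 relations computed are given, and the p-values are not adjusted for their number.

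The 4 lowest libraries lie below a gap in the marker level, and 3 of them are FLT3 ITD Ptprc KO. Within the 12 libraries above a level of 9, a line chosen after seeing the data, r was 0.951 for Slc11a2, 0.926 for Ppargc1b, 0.907 for Steap4 and 0.837 for Tfrc (permutation p = 1e-05, 5e-05, 4e-05 and 0.00171). There it was -0.684 for Slc11a1 (permutation p = 0.0112), -0.457 for Fth1 and -0.348 for Ftl1 (permutation p = 0.135 and 0.264), so both ferritin genes kept their sign but were not below 0.05 in these 12 libraries. For Steap3 it was 0.225 and for Slc40a1 -0.441 (permutation p = 0.473 and 0.149). With the marker level as a term in the edgeR fit, the log2 fold change of FLT3 ITD Ptprc KO against FLT3 ITD was 0.53 for Tfrc (-0.85 without the term), 0.06 for Slc11a2 (-0.70), 0.71 for Ppargc1b (-0.84) and -0.44 for Steap4 (-1.88). In Ptprc KO against WT, the value of Steap3 was 0.61 with the term (0.66 without), and in FLT3 ITD against WT that of Slc40a1 was -2.47 (-2.40). With the term edgeR called 1 of 9 members, Steap3, in FLT3 ITD against Ptprc KO (0.19% of all genes) and over the 4 genotypes (0.347%).

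**Figure D4:**
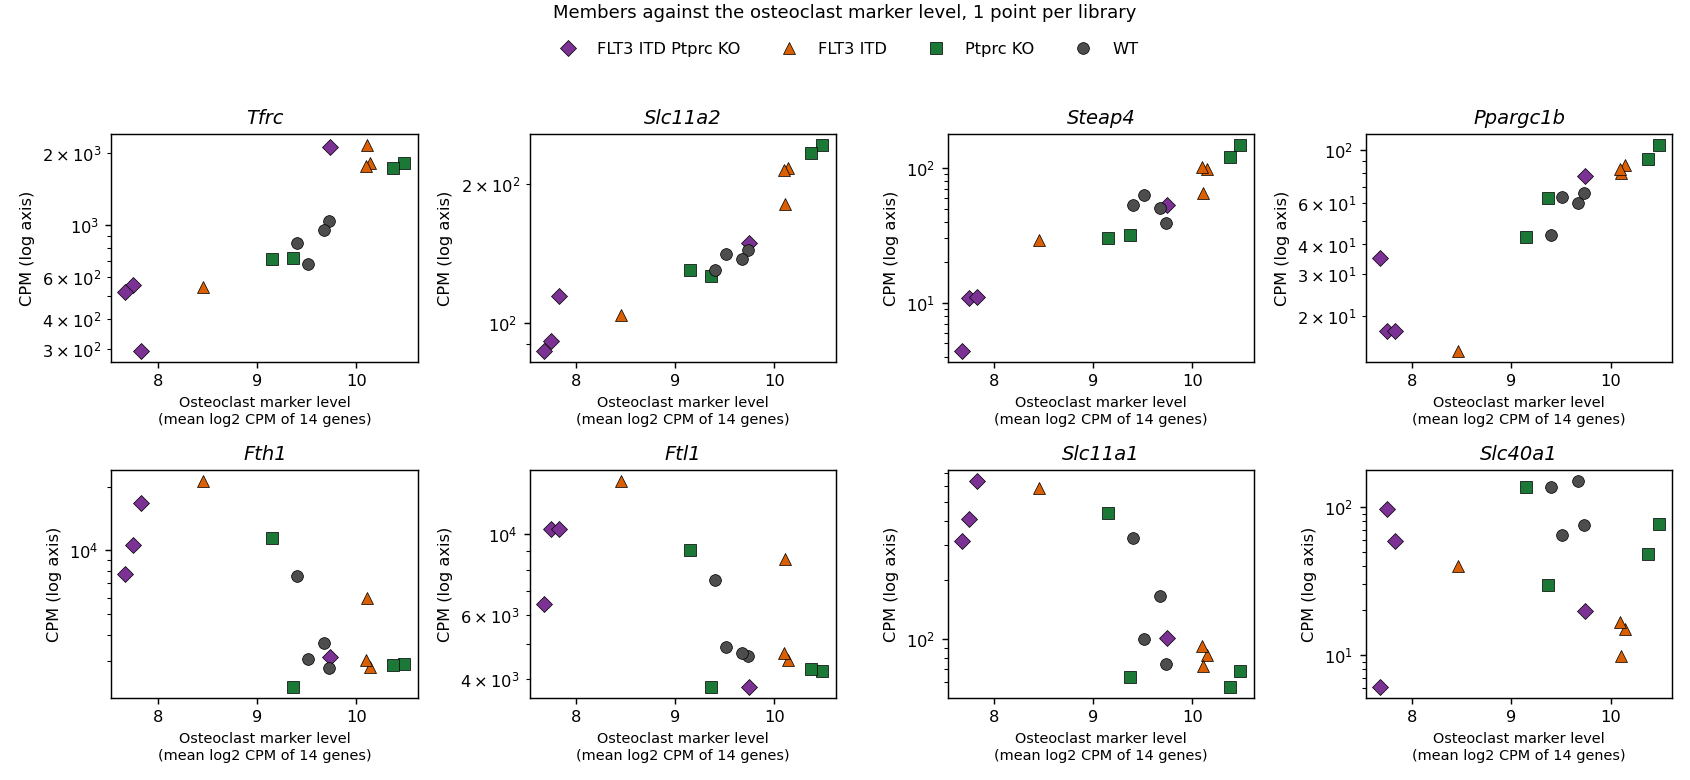
CPM (log axis) of 8 of the 9 genes against the osteoclast marker level (mean log2 CPM of 14 genes), 1 point per library, genotypes by colour and shape. Tfrc, Slc11a2, Steap4 and Ppargc1b increase along the axis, Fth1, Ftl1 and Slc11a1 decrease, and Slc40a1 separates FLT3 ITD from WT with no trend over all libraries.

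Macrophage and monocyte markers also varied between libraries. The summed level of all 14, each of which is in the table, ran from 7957 to 30850 CPM in FLT3 ITD Ptprc KO, from 6223 to 32520 CPM in FLT3 ITD, from 5056 to 22108 CPM in Ptprc KO and from 5093 to 19804 CPM in WT, with none at 0 throughout. The part of macrophages in the levels of Slc11a1, Fth1 and Ftl1 was not tested. Hmox1, the haem oxygenase that frees iron from haem, spanned 126 to 1131 CPM in FLT3 ITD Ptprc KO, 112 to 1588 CPM in FLT3 ITD, 106 to 1395 CPM in Ptprc KO and 145 to 918 CPM in WT. Erythroid markers summed to at most 1.35 CPM in any library, with Gata1 and Epb42 at 0 throughout.

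Beside the low Slc40a1 of FLT3 ITD, several but not all markers of iron-recycling and resident macrophages were low. Their summed level over 8 genes was 49.0 to 195 CPM in FLT3 ITD Ptprc KO, 25.2 to 209 CPM in FLT3 ITD, 103 to 677 CPM in Ptprc KO and 76.7 to 513 CPM in WT. Of the 7 tested, 5 were lower in FLT3 ITD against WT at an unadjusted p under 0.05 (3.23% of all genes in that direction), namely Vsig4, Timd4, Cd5l, Spic and Vcam1. Marco, a scavenger receptor, was higher at that line, at 8.21 to 95.7 CPM in FLT3 ITD and 5.94 to 15.8 CPM in WT (log2 fold change 1.69, adjusted p = 0.590). Siglec1, a sialic acid receptor of resident macrophages, stood at 0.910 to 78.2 CPM in FLT3 ITD and 8.78 to 80.3 CPM in WT (unadjusted p = 0.451). Vsig4, a complement receptor of tissue macrophages, had 0 counts in all 4 FLT3 ITD Ptprc KO and all 4 FLT3 ITD libraries, against 1.44 to 3.85 CPM in Ptprc KO and 0.849 to 5.33 CPM in WT. A count of 0 allows up to 3 counts in a library, or 0.0899 to 0.13 CPM in these 8, for counting error only. By edgeR it fell in FLT3 ITD Ptprc KO against WT (adjusted p = 0.0265) and in FLT3 ITD against WT (adjusted p = 0.0436). The first call was made in 17 of 29 alternatives (adjusted p from 1.84e-10 to 0.206) and the second in 9 of 29 (adjusted p from 7.67e-10 to 0.512). Both were lost without WT replicate 1, 3 or 4, with a replicate block (adjusted p = 0.0622 and 0.289) and when the pair was fitted alone (0.206 and 0.430). Vcam1, an adhesion molecule carried by splenic iron-recycling macrophages, stood at 0.293 to 7.54 CPM in FLT3 ITD Ptprc KO, 0.606 to 10.9 CPM in FLT3 ITD, 14.7 to 214 CPM in Ptprc KO and 12.3 to 164 CPM in WT, and did not pass (adjusted p = 0.305 in FLT3 ITD Ptprc KO and 0.514 in FLT3 ITD, each against WT). Cd5l, secreted by such macrophages, passed the test of any difference over the 4 genotypes (adjusted p = 0.0375) and none of the 6 pairs. It stood at 1.63 to 18.3 CPM in FLT3 ITD Ptprc KO, 2.19 to 10.5 CPM in FLT3 ITD, 40.5 to 295 CPM in Ptprc KO and 35.2 to 222 CPM in WT. Stromal and osteoblast-lineage markers (7 of 12 tested) were also lower in FLT3 ITD against WT, with 7 of 7 negative, 5 of them at an unadjusted p under 0.05. This was not particular to FLT3 ITD. Against WT, 7 of 7 were negative in Ptprc KO and 6 of 7 in FLT3 ITD Ptprc KO, with 0 lower at that line in either. Their summed level was 7.15 to 20.8 CPM in FLT3 ITD and 16.6 to 53.0 CPM in WT. It was 7.22 to 18.9 CPM in Ptprc KO and 9.12 to 23.8 CPM in FLT3 ITD Ptprc KO. The part of these cells in the Slc40a1 level was not tested.

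By likeness of log2 CPM over the 16 libraries, among 9621 genes that averaged 5 CPM or more, with predicted gene models and the other members left out, the 3 genes closest to Slc40a1 were Cd4 (r = 0.894), Mertk (r = 0.890) and Epb41l3 (r = 0.846). Closest to Tfrc were Pkn3 (r = 0.959), Napepld (r = 0.948) and Pgap4 (r = 0.946). Closest to Steap4 were Oscar (r = 0.981), Myo1d (r = 0.978) and Msln (r = 0.967), and Oscar is also 1 of the 14 osteoclast markers. Closest to Ppargc1b were Cyp2s1 (r = 0.981), Src (r = 0.980) and Ankrd13b (r = 0.979). These are descriptions over libraries that share culture, depth and genotype.

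Within the 9, Fth1 and Ftl1 had the closest pair (r = 0.963 over 16 libraries), then Slc11a1 with Fth1 (r = 0.930) and Steap4 with Slc11a2 (r = 0.911). Ppargc1b ran opposite to Slc11a1 (r = -0.905) and Fth1 (r = -0.891). These too are descriptions, with no test.

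The TPM ratio of Tfrc to Slc40a1 sets the importer against the exporter within a library. It was 8.49, 7.02, 155 and 117 in FLT3 ITD Ptprc KO replicates 1 to 4, 187, 319, 156 and 19.9 in FLT3 ITD, 36.8, 35.1, 53.8 and 7.59 in Ptprc KO, and 15.4, 20.4, 9.09 and 9.2 in WT. FLT3 ITD replicates 1 to 3 lay above every library of Ptprc KO and WT, and FLT3 ITD replicate 4 lay within the WT range. The ratio of Tfrc to Fth1 was 0.00956 to 0.373 in FLT3 ITD Ptprc KO, 0.0139 to 0.360 in FLT3 ITD, 0.0346 to 0.345 in Ptprc KO and 0.0616 to 0.206 in WT. Its range was widest in both FLT3 ITD genotypes, and all 4 groups overlap.

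The rest of the iron system was read from 4 further lists, none of whose genes passed in any comparison. Other genes of iron entry, endosomes and export (17 of 24 tested) had a median log2 fold change of 0.03 in FLT3 ITD Ptprc KO against FLT3 ITD, with 1 gene higher and 1 lower at an unadjusted p under 0.05 (11.9% and 13.7% of all genes). The higher was Lrp1, a receptor that takes up haem bound to hemopexin, at 740.3 to 1130 CPM in FLT3 ITD Ptprc KO and 101 to 637 CPM in FLT3 ITD (log2 fold change 1.12, SE 0.44, adjusted p = 0.145). Cd163, the haptoglobin-haemoglobin receptor of macrophages, was low, at 0 to 0.163 CPM in FLT3 ITD Ptprc KO, against 0.722 to 2.63 CPM in Ptprc KO (adjusted p = 0.0644).

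Chaperone, ferritin turnover and iron regulatory protein genes (13 of 14 tested) had a median of -0.11 in FLT3 ITD Ptprc KO against FLT3 ITD, with 3 lower at an unadjusted p under 0.05 (13.7% of all genes). Ndfip1, an adaptor of ubiquitin ligases that limits Slc11a2 protein, was at 100.2 to 176 CPM in FLT3 ITD Ptprc KO and 155 to 286 CPM in FLT3 ITD (log2 fold change -0.73, SE 0.23, adjusted p = 0.115). Cisd1, an iron-sulphur protein of the outer mitochondrial membrane, was at -1.09 (SE 0.36, adjusted p = 0.120). The iron regulatory proteins, which bind the elements printed above, have 2 genes. Ireb2, which encodes IRP2, was at 109.7 to 125 CPM in FLT3 ITD Ptprc KO, 81.5 to 121 CPM in FLT3 ITD, 111 to 128 CPM in Ptprc KO and 113 to 130.3 CPM in WT. Aco1, which encodes IRP1, was at 78.4 to 143 CPM in FLT3 ITD Ptprc KO, 88.4 to 167 CPM in FLT3 ITD, 114 to 192 CPM in Ptprc KO and 119 to 165 CPM in WT.

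Genes of mitochondrial iron import, iron-sulphur cluster and haem synthesis (26 of 27 tested) had mostly negative fold changes in FLT3 ITD Ptprc KO. Against FLT3 ITD, 22 of 26 had negative log2 fold changes (median -0.45, against 0.03 over all genes), and 12 were lower at an unadjusted p under 0.05 (13.7% of all genes). The mean log2 CPM of the list was 5.52 in FLT3 ITD replicate 2, the library with the trend with gene length. It was 5.11, 5.10 and 4.97 in FLT3 ITD replicates 1, 3 and 4, and the part of that trend was not tested. Against Ptprc KO, 21 of 26 were negative (median -0.43, against 0.04), and 8 were lower at that line (9.07% of all genes). Osteoclast markers were 14 of 14 negative against FLT3 ITD (median -1.29, 8 lower at that line), and cell cycle genes were 24 of 24 positive (median 1.12, 10 higher, where 11.9% of all genes were). The summed level of the cell cycle genes was 1334 to 5655 CPM in FLT3 ITD Ptprc KO and 644 to 1815 CPM in FLT3 ITD, and the part of either in the mitochondrial list was not tested. These are counts and medians only, with 0 of 26 called by edgeR after adjustment in either comparison. Iscu, the scaffold of iron-sulphur cluster assembly, stood at 40.0 to 56.7 CPM in FLT3 ITD Ptprc KO, 58.5 to 105 CPM in FLT3 ITD, 63.2 to 99.4 CPM in Ptprc KO and 63.4 to 78.5 CPM in WT. Its FLT3 ITD Ptprc KO libraries lay below those of every other genotype (log2 fold change -0.79, SE 0.20, adjusted p = 0.130 against Ptprc KO), which unlike for Steap4 includes replicate 3. Ranges did not overlap in that direction for 2.56% of all genes against WT, 3.52% against FLT3 ITD and 2.84% against Ptprc KO. Isca2, a later factor of the same pathway, was at 20.4 to 27.7 CPM in FLT3 ITD Ptprc KO and 29.8 to 55.3 CPM in FLT3 ITD (log2 fold change -0.68, SE 0.19, adjusted p = 0.107).

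Among 16 tested of 18 mitochondrial biogenesis regulators, to which Ppargc1b would belong, the median was -0.11 in FLT3 ITD Ptprc KO against FLT3 ITD and -0.02 against Ptprc KO. Tfb2m, a mitochondrial transcription factor, was at 11.7 to 13.4 CPM in FLT3 ITD Ptprc KO and 14.6 to 16.6 CPM in Ptprc KO (log2 fold change -0.32, SE 0.12, adjusted p = 0.237). Nrf1, a nuclear activator of respiratory chain genes, was at 0.33 (SE 0.15, adjusted p = 0.181) in FLT3 ITD Ptprc KO against FLT3 ITD. Ppargc1a, the relative of Ppargc1b, was at or near 0 in all libraries (at most 0.094 CPM) and was not tested.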

How the data were processed

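Poly(A) RNA of 16 cultures was sequenced with a directional kit and adaptors carrying molecular identifiers, from 500 ng of RNA, per the labels' protocols. The authors deposited raw counts, as whole numbers per gene with no scaling. They also deposited TPM, which scale to gene length and library total; the reads they imply per count were 0.948 to 1.06 times those of the median gene for the 9 members. The submitters' processing notes name STAR (2.7.6a) and build GRCm38.p6, with featureCounts (2.0.3), UMI-tools (1.1.1), cutadapt (4.2) and bcl2fastq (2.20.0.422). Their settings are not given in the sources used here.

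Count tests used edgeR (4.0.16, R 4.3.3) on genes that passed filterByExpr, with TMM scaling and robust quasi-likelihood fitting over 16 libraries and 4 group means. Tests are two-sided, p-values were adjusted by Benjamini-Hochberg over 12093 genes, and the threshold was 0.05. The common dispersion of 0.137 amounts to a spread of 0.370 (coefficient of variation) among replicates, on 12 residual degrees of freedom. CPM were taken on TMM-scaled totals, and log2 CPM with 2 as prior count. Each SE was derived from the F statistic, and intervals are 95% by a t distribution on the 12 residual degrees of freedom. The quasi-likelihood tests add prior degrees of freedom to these, so an interval need not match its p-value exactly. Relations to the marker level used two-sided permutation with 100000 resamples. The scripts were tested on simulated counts. Positions and UTRs came from GENCODE M21 on GRCm38, 1-based.

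The genes and lists were chosen with earlier results of these data known. Named genes were the 9 members, list genes past the threshold or else the 2 with the smallest p of an iron or mitochondrial list, genes whose role the text needs, and the 3 closest by correlation to 4 of the members. Alternatives of scaling and filter were RLE factors, library totals, no filter and mean counts of 50 or more. Other fits took each pair of groups alone, the replicate number as a block or the marker level as a term. Other methods were DESeq2 (1.42.0), voom quality weights and limma (3.58.1) on log2 TPM. Those TPM had a mean of 1 or more and pseudocounts of 1 and 0.1. Libraries were also left out in turn, as were both libraries that stand apart together. FLT3 ITD replicates 1 and 3 were summed, with and without FLT3 ITD replicate 2.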

Additional observations from a re-analysis of the deposited data

Results flagged for a closer look

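In groups of 4 libraries, a library was picked out when its gap to the nearest other, over the group's range, exceeded Dixon's critical value at 95%. Of 36 groups checked (9 genes in 4 genotypes), 8 did so. Chance picks out about 1 in 20 where values are normal and groups independent. Here CPM were used without logs and the genes share libraries, so the 8 cannot be set against that rate.

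In FLT3 ITD Ptprc KO, replicate 3 was high for Tfrc at 2121 CPM and for Steap4 at 53.5 CPM. In FLT3 ITD, replicate 4 was high for Slc11a1 at 591 CPM and low for Ppargc1b at 14.2 CPM. Ptprc KO replicate 4 was high for Slc11a1 at 437 CPM, for Fth1 at 11408 CPM and for Ftl1 at 9078 CPM. In WT, replicate 3 was high for Ftl1 at 7497 CPM. The osteoclast marker level was the highest of its genotype in FLT3 ITD Ptprc KO replicate 3 (9.74), and the lowest in FLT3 ITD replicate 4 (8.46), Ptprc KO replicate 4 (9.15) and WT replicate 3 (9.40). Its part in these values was not tested.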

How the results depend on the processing

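The edgeR count of members called was 0 of 9 in all 8 tests, and it stayed 0 with RLE factors, library totals, no filter, mean counts of 50 or more, only the groups compared (pairs only), FLT3 ITD replicates 1 and 3 summed, log2 TPM and the replicate block. DESeq2 called 1 in Ptprc KO against WT, FLT3 ITD Ptprc KO against Ptprc KO, FLT3 ITD against Ptprc KO and the test over 4 genotypes. Voom with quality weights called 4 in FLT3 ITD, 2 in Ptprc KO and 6 in FLT3 ITD Ptprc KO against WT, 7 in FLT3 ITD Ptprc KO against FLT3 ITD and 8 against Ptprc KO, 2 in FLT3 ITD against Ptprc KO, 8 in the interaction and 9 over 4 genotypes. With both libraries that stand apart left out, edgeR called 2 in FLT3 ITD Ptprc KO against WT and 5 each against FLT3 ITD, against Ptprc KO, in the interaction and over 4 genotypes; with the marker level as a term it called 1 in FLT3 ITD against Ptprc KO and 1 over 4 genotypes. Leaving out 1 library at a time gave 0 to 2 calls in FLT3 ITD Ptprc KO against FLT3 ITD and against Ptprc KO, 0 to 1 over 4 genotypes and 0 in the other tests.

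Of 1881 fold changes under alternatives, 62 newly passed the threshold in the same direction. Another 24 changed sign, counted only where the main value exceeded its SE or the alternative called it. The other 1795 kept their side of the threshold, and they include sign changes of values within their SE. One is Tfrc in FLT3 ITD Ptprc KO against WT, at -0.01 and at 1.08 with the marker level as a term. With the marker level as a term, FLT3 ITD Ptprc KO against WT turned to -0.90 for Slc11a1, 0.32 for Slc11a2, -0.51 for Fth1, -0.44 for Ftl1 and 0.52 for Ppargc1b. Against FLT3 ITD it turned to 0.53 for Tfrc, 0.064 for Slc11a2 and 0.71 for Ppargc1b, and against Ptprc KO to -0.89 for Slc11a1 and Fth1, 0.11 for Slc11a2, -0.56 for Ftl1 and 0.48 for Ppargc1b. The interaction turned to 0.44 for Tfrc and 0.67 for Ppargc1b, and Steap4 in Ptprc KO against WT to -0.0024. By voom, FLT3 ITD against WT turned to -0.22 for Fth1 and -0.087 for Ftl1, and Ftl1 turned to 0.71 in FLT3 ITD Ptprc KO against FLT3 ITD and 0.91 in the interaction. Fth1 in FLT3 ITD turned to -0.11 against WT and -0.30 against Ptprc KO, both without replicate 4 and without both libraries that stand apart, and leaving out 1 library at a time these values reached 1.38 and 1.64. The cause of these changes was not tested.

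The relations to the marker level were also judged by r after adjustment over the 9. Over the 16 libraries Steap3 missed the threshold by r and passed it by rho (adjusted permutation p = 0.0558 and 0.0378). By r it passed with genotype means removed (r = 0.722) and with FLT3 ITD replicates 1 and 3 averaged (r = 0.539). Above a level of 9, where fewer libraries enter, the relation no longer passed by r for Fth1 (r = -0.457) and Ftl1 (r = -0.348). There Slc11a1 passed by r and not by rho (adjusted permutation p = 0.0202 and 0.0882).

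Whether replicate numbers pair the samples was not settled. Same-numbered libraries of different genotypes had correlations from -0.633 to 0.851 (median 0.0749, 24 pairs). Differently numbered ones had a median of -0.009 and a highest value of 0.846 (72 pairs). Of the 16 libraries, 8 correlated best with their own number, which is above the average that unrelated numbers would give. With a replicate block 0 of 9 members were called in any test, and over all genes the count of calls was 47 in place of 11 in FLT3 ITD Ptprc KO against Ptprc KO, 9 in place of 13 against WT, 0 in place of 5 in FLT3 ITD against WT, 3 in place of 9 against Ptprc KO, 1 in place of 4 in Ptprc KO against WT and 19 in place of 27 over 4 genotypes. The lowest count of a member in a library was 146, so the spread between replicates limits the precision more than depth does.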
